A study of Mus musculus with 12 samples.

Results

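Copper transport and copper chaperone genes were described here across a differentiating mouse erythroid cell line, as a set of 10 genes: Slc31a1, Atp7a, Atp7b, Atox1, Ccs, Sco1, Sco2, Cox17, Cox11 and Commd1. They were chosen by name, for what their proteins are known to do, out of 55367 gene symbols in the tables. Earlier results of these data were known when these genes and the further lists below were chosen. All 10 were present in the tables, and all 10 were among the 11917 genes that reached at least 1 TPM (a read level divided by gene length and scaled to the same total in every library) in at least 3 libraries and were tested. The question was whether a metal chelator given for its effect on zinc or iron also leaves a change in the genes that carry copper.

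The cells were G1E-ER4, a single mouse line of GATA1-null erythroid progenitors that carry GATA1 joined to the estrogen receptor ligand-binding domain, so that estradiol starts their maturation. Every group, control included, received 100 nM β-estradiol and was harvested after 24 h, in medium with erythropoietin and Kit ligand. The 4 groups of 3 libraries were control, 50 µM DTPA (a chelator that stays largely outside cells and that the labels use for zinc deficiency), 50 µM DFO (desferrioxamine, an iron chelator) and 0.2 mM SA (succinylacetone, an inhibitor of the heme synthesis enzyme ALAD). SA served as the comparison without a chelator. For the SA group the treatment protocol names DFO while the sample titles name SA, and the titles were followed. All libraries come from 1 line, so the p-values below measure the spread between cultures of that line.

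Copper enters cells through SLC31A1 (CTR1) and is bound at once by small chaperones. ATOX1 delivers it to the copper ATPases ATP7A and ATP7B, which load secreted enzymes or export copper, CCS delivers it to superoxide dismutase SOD1, and COX17, SCO1, SCO2 and COX11 pass it to the copper sites of cytochrome c oxidase in mitochondria. COMMD1 takes part in the sorting of the copper ATPases between membranes. Much of the known control in mammalian cells acts on the proteins, through the movement of the transporters and the turnover of CCS, which mRNA does not measure. A well-known transcriptional readout of cell metal is the metallothionein pair Mt1 and Mt2, which are switched on through metal response elements (MREs) by the zinc-sensing factor MTF1 when zinc, cadmium or copper is in excess.

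Promoters were searched because the treatments act on metals: the MRE core as TGCACNC or TGCGCNC and the GC box, a motif known to bind Sp1, as GGGCGG, on both strands of the 250 bases before each start site in RefSeq's GRCm38.p6 promoters. The promoter table matched 8 of the 10 genes, the others being Ccs and Cox17. An MRE core was found in 3 of these 8 genes (Atp7a, Atp7b and Commd1), beside 21.4% of all 32851 promoter windows. A GC box was found in 5 of 8 (Slc31a1, Atp7a, Atox1, Sco1 and Sco2), beside 32.7%, and only that of Slc31a1 is printed. The stretches below are those of the copper ATPases, Commd1 and the metallothioneins, each read 5′ to 3′ with the MRE core in capitals and 10 bases on either side, and the GC box of Slc31a1 in capitals with the bases around it.
Atp7a, chrX:106027094-106027120, minus strand: gggagctcctTGCGCCCcctggtgcac
Atp7a, chrX:106027082-106027108, minus strand: cgccccctggTGCACGCatgcattctc
Atp7b, chr8:22060215-22060241, minus strand: tggtcctcgcTGCACCCtatctgcagc
Commd1, chr11:22982488-22982514, plus strand: gatgtgcaaaTGCGCACtcaaaggaac
Commd1, a further start site, chr11:22972940-22972966, plus strand: cgactgcgcaTGCGCACattcaactac
Mt1, chr8:94179056-94179082, plus strand: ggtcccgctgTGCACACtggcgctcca
Mt2, chr8:94172385-94172411, plus strand: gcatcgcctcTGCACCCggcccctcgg
Mt2, chr8:94172480-94172506, plus strand: gcagacccttTGCGCTCagctcctttg
Mt2, chr8:94172558-94172584, minus strand: ggacagagccTGCACACgccctccccc
Slc31a1, chr4:62360681-62360700, plus strand: atcacccaggGGGCGGgtcc
The windows of both Atp7a cores overlap. RefSeq's start site of Atp7b lies inside the gene span that GENCODE gives, so the Atp7b stretch is before the RefSeq start and after the outermost GENCODE start. At least 2 cores, as in Atp7a, were held by 5.17% of all windows, and at least 3, as in Mt2, by 1.26%. A match is a run of letters and does not show that a factor binds there.

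Between 19861984 and 24336691 reads per library were recovered from the TPM values and the exon lengths, and no pair of replicates agreed within counting error. All 10 erythroid identity genes were present in every group; their summed level was between 39206 and 43582 TPM in control, 44197 and 53984 with DTPA, 28904 and 31302 with DFO and 23805 and 25758 with SA. The summed level of 8 megakaryocyte markers was between 8.23 and 9.34 TPM in control and between 36.5 and 45.8 TPM with DTPA, through Itgb3 and Gp1ba, with Ppbp at 0 in every library. With DFO it was between 10.3 and 10.9 TPM and with SA between 8.27 and 9.87. Mast and myeloid markers (8 genes) summed to at most 3.61 TPM and lymphoid markers (6 genes) to at most 2.04 TPM in any library. The part of this rise in the copper gene results was not tested. In bulk RNA, fewer cells of a type and less RNA per cell cannot be told apart. Differences below are of log2(TPM + 1), fitted with limma over all 12 libraries with Benjamini-Hochberg adjustment over the 11917 genes, and a gene is called when its adjusted p is below 0.05. The added 1 TPM makes the difference of a low gene look smaller than it is, and each treatment is set against the same 3 control libraries.

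In control cells Slc31a1 was the highest of the 10 genes, at 424 ± 9.14 TPM (SD, n = 3), followed by Atox1, Ccs, Atp7a and Atp7b, each with a range apart from the next. Commd1 at 16.5 ± 0.965 TPM and Cox11 at 15.7 ± 2.63 TPM overlapped, and Cox17, Sco1 and Sco2 were lowest, Sco2 at 3.58 ± 0.624 TPM. Of the exon bases of Sco2, 68.3% are shared with another gene on the same strand, so its level and place are uncertain. The order was kept with DFO, where Commd1 and Cox11, and Sco1 and Sco2, overlapped. It was kept with SA too, with Sco1 and Sco2 overlapping. With DTPA Commd1 stood above Atp7b, and Sco2 above Sco1 with overlapping ranges. The level of Cox17 depends on the length counted: its annotated exons add up to 5773 bases, while its main transcript has 444 bases. With that length, and all its reads taken to fall there, the control level was 130 TPM instead of 10.0. The annotated exons of Cox17 form 1 block over the whole gene, so its reads may include some from outside the main transcript. For Commd1 the same step gives 67.2 TPM instead of 16.5, so the places of Cox17 and Commd1 in the order rest on the deposited lengths. The TPM ratio of 1 gene between groups does not depend on its length. Its difference of log2(TPM + 1) does, through the added 1 TPM. For Cox17 with DTPA the difference from control was -0.24 with 0.1 TPM added and -0.16 with 5 TPM added.

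**Figure D1:**
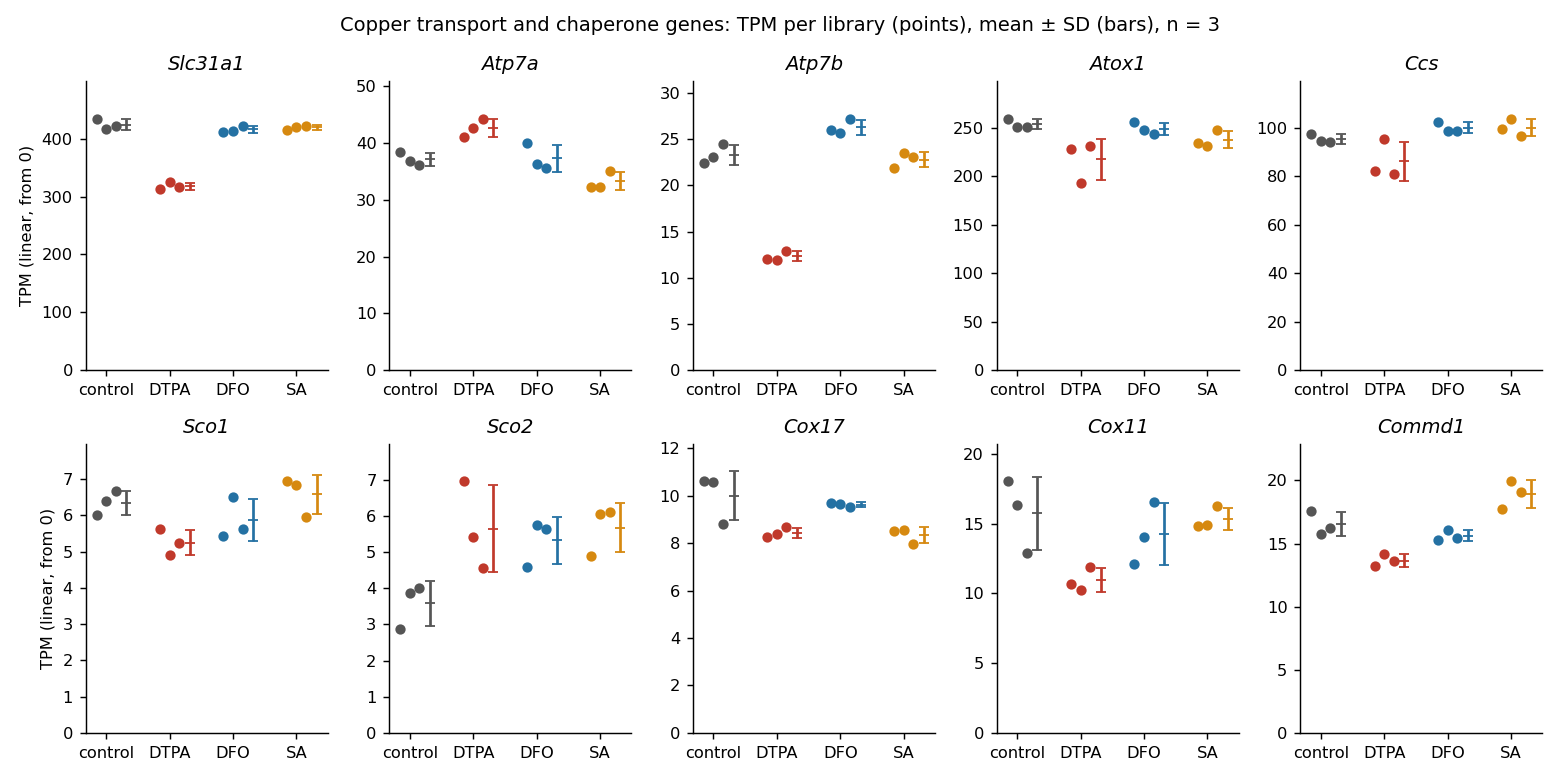
Level of each copper gene in TPM (linear axis from 0) in the 3 libraries of each group, with points for libraries and bars for the mean ± SD. Atp7b and Slc31a1 with DTPA lie far below the other 3 groups, Atp7a with DTPA lies above them, and the 3 control libraries of Sco2 are its lowest.

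With DTPA, all 10 genes were called against control, 2 higher (Atp7a and Sco2) and 8 lower. This stands beside a background of 65.5% of all tested genes called, 23.5% higher and 42.1% lower, so a call is the common state of a gene in this comparison. Their median difference was -0.23, beside -0.11 over all genes tested. With DFO 1 of 10 was called (Atp7b, higher; background 10.7%, 8.39% higher and 2.28% lower). With SA 4 of 10 were called (Sco2 and Commd1 higher, Atp7a and Cox17 lower; background 22.2%, 15.4% higher and 6.75% lower). The 3 libraries of a treatment did not overlap the 3 of control in 9 of 10 genes for DTPA (background 69.6%), 3 of 10 for DFO (30.2%) and 5 of 10 for SA (38.5%).

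The scale matters here, since the median of all genes moved by -0.11 with DTPA, and a rescaling by the median of ratios sets that median to about 0. It changes the split of all called genes in DTPA from 2796 higher and 5014 lower to 3842 higher and 3859 lower. For DFO the split goes from 1000 higher and 272 lower to 423 and 646, and for SA from 1838 and 804 to 1124 and 1624. Between treatments it goes from 2330 and 5527 to 3775 and 3806 for DTPA against DFO, and from 2395 and 5598 to 3794 and 3883 for DTPA against SA. On that scale the median difference of the copper genes with DTPA was -0.11. Of the 10 copper genes, 6 were called (background 64.6%), 2 higher (32.2%) and 4 lower (32.4%). Slc31a1, Atp7a, Atp7b, Sco2, Cox11 and Commd1 were called in the same direction under all 4 other scalings tried (median of ratios, trimmed mean, and voom on the recovered reads with either library size), while Atox1, Ccs, Sco1 and Cox17 were not. The DTPA changes that hold under every scaling are therefore lower Slc31a1, Atp7b, Cox11 and Commd1 and higher Atp7a and Sco2. With DFO the 1 copper gene called on the median-of-ratios scale was Slc31a1, lower, in place of Atp7b, higher (all genes: 646 lower and 423 higher). With SA that scale gave 1 higher and 3 lower in place of 2 and 2 (all genes: 1124 and 1624). Voom with median-of-ratios library sizes gave 0 higher and 4 lower with SA (all genes: 1292 and 1882).

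**Figure D2:**
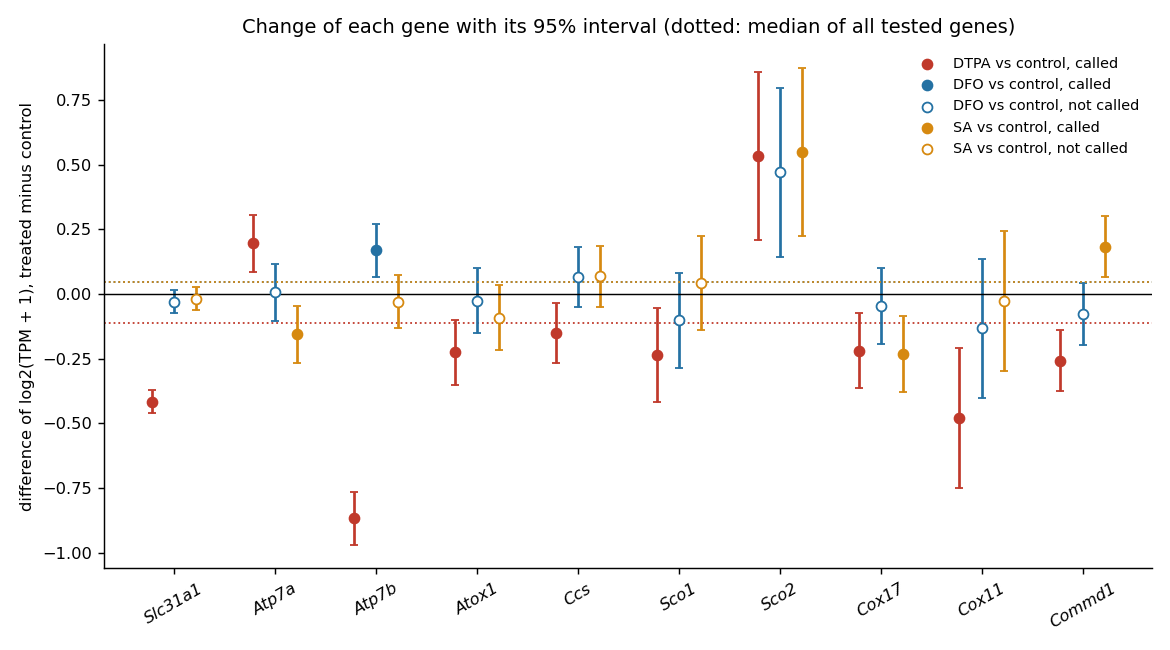
Difference of log2(TPM + 1) from control for each gene and treatment, with its 95% interval; filled points are called, open points are not, and dotted lines mark the median of all tested genes for each treatment. The DTPA intervals of Slc31a1, Atp7b, Cox11 and Commd1 lie below the DTPA median of -0.11 and those of Atp7a and Sco2 above 0. Most DFO and SA intervals include 0.

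Slc31a1 (chr4:62360727-62391769, plus strand, mm10) encodes the high-affinity copper importer. It was at 434, 416 and 423 TPM in the control libraries and at 313, 325 and 316 TPM with DTPA. It was at 412, 413 and 422 TPM with DFO and at 415, 421 and 422 TPM with SA. The DTPA libraries were all below every other library, and the other 3 groups overlapped. With DTPA the mean fell by 25.1% (log2 difference -0.42, SE 0.0207, limma adjusted p = 6.18e-09), and by between 0.28 and 0.34 on the log2 scale under the other scalings. With DFO the difference was -0.03 with a 95% interval from -0.07 to 0.02 (limma adjusted p = 0.420), and with SA -0.02 with an interval from -0.06 to 0.03 (limma adjusted p = 0.601). Under 3 of 4 other scalings the DFO and SA values were called slightly lower, with all 4 values between -0.09 and -0.05 for DFO and between -0.08 and -0.03 for SA.

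Atp7b (chr8:21992785-22060305, minus strand) encodes the copper ATPase mutated in Wilson disease, best known for copper export from liver cells. Its control libraries were at 22.4, 23.1 and 24.5 TPM and its DTPA libraries at 12.1, 12.0 and 12.9 TPM. The DFO libraries were at 26.0, 25.7 and 27.2 TPM and the SA libraries at 21.9, 23.5 and 23.0 TPM. DTPA lay far below all other libraries, DFO above all of them, and SA overlapped control. Atp7b had the largest difference of the 10 genes with DTPA, where its mean fell by 47.1% (log2 difference -0.87, SE 0.0461, limma adjusted p = 1.10e-08; between -0.84 and -0.74 under the other scalings). With DFO it was 12.8% higher (log2 difference 0.17, interval 0.07 to 0.27, limma adjusted p = 0.0407). That call was the only one in DFO and was not firm: it was lost under 3 of 4 other scalings (values from 0.11 to 0.16, adjusted p up to 0.176). It was also lost without control replicate 1 (0.14) or 2 (0.16), without DFO replicate 1 (0.18), 2 (0.18) or 3 (0.14), and without SA replicate 3 (0.17). Its SA difference from control was -0.03, with an interval from -0.13 to 0.07.

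Atp7a (chrX:106027276-106124926, plus strand) encodes the widely expressed copper ATPase mutated in Menkes disease, and it moved the other way. It was at 38.3, 36.9 and 36.1 TPM in control and at 41.1, 42.7 and 44.2 TPM with DTPA. It was at 40.02, 36.4 and 35.6 TPM with DFO and at 32.3, 32.3 and 35.0 TPM with SA. The DTPA libraries were the 3 highest of the 12, the SA libraries the 3 lowest, and DFO overlapped control. The rise with DTPA was 15.0% (log2 difference 0.20, SE 0.0497, limma adjusted p = 0.00446; 0.28 to 0.33 under the other scalings). The DFO difference was 0.0065 (interval -0.10 to 0.12, limma adjusted p = 0.953). With SA the level fell by 10.5% (log2 difference -0.16, SE 0.0497, limma adjusted p = 0.0445; -0.22 to -0.18 under the other scalings, all called). The SA call did not hold when 1 library was left out, for control replicates 1 (-0.13), 2 (-0.16) and 3 (-0.17), DTPA replicate 2 (-0.16), DFO replicate 2 (-0.16) and SA replicates 1 (-0.14) and 2 (-0.14). Atp7a and Atp7b thus differed in direction with DTPA.

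Atox1 (chr11:55446641-55461239, minus strand), the chaperone for both ATPases, was at 259, 251 and 250 TPM in control and at 228, 193 and 231 TPM with DTPA. DFO gave 256, 248 and 244 TPM and SA 234, 232 and 248 TPM. The DTPA libraries were the 3 lowest, with replicate 2 well below the others. The DTPA difference of -0.22 (SE 0.0571, limma adjusted p = 0.00453) shrank to -0.09 under the median-of-ratios scaling (adjusted p = 0.196) and was between -0.15 and -0.09 under the scalings tried. DFO (-0.03) and SA (-0.09) were not called. With SA all 3 libraries lay below control. The SA difference was called lower under 1 of 4 other scalings (-0.15 to -0.11 over all 4) and without DTPA replicate 2 (-0.09).

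Ccs (chr19:4825366-4839332, minus strand), the chaperone for SOD1, was at 97.4, 94.3 and 94.1 TPM in control and at 82.0, 95.1 and 80.9 TPM with DTPA. DFO gave 102, 98.7 and 98.4 TPM and SA 99.6, 104 and 96.6 TPM. DTPA replicate 2 lay within the control range, so Ccs was the 1 gene of the 10 whose DTPA and control libraries overlapped. Its DTPA difference was -0.15 (interval -0.27 to -0.03, limma adjusted p = 0.0266), and its call was lost without control replicate 1 (-0.13), DTPA replicate 1 (-0.12) or DTPA replicate 3 (-0.11). It was called under none of the other scalings (-0.07 to -0.02). With DFO all 3 libraries lay above control, but the difference of 0.07 (interval -0.05 to 0.18) was not called, and neither was that of SA (0.07, interval -0.05 to 0.18). The mRNA of its client Sod1, a cytosolic copper and zinc enzyme, was at 287 ± 1.37 TPM in control, 280 ± 12.3 with DTPA, 268 ± 5.91 with DFO and 243 ± 2.18 with SA (SD, n = 3 each). Sod1 was called lower with DFO (-0.10, limma adjusted p = 0.0477) and SA (-0.24, limma adjusted p = 0.000142) and not with DTPA (-0.04, interval -0.10 to 0.02). On the median-of-ratios scale both lower calls held, and with DTPA Sod1 was called higher (0.09).

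Among the mitochondrial chaperones, Cox17 (chr16:38346991-38352763, plus strand), the donor of copper to the others, was at 10.6, 10.6 and 8.82 TPM in control. It was at 8.25, 8.39 and 8.67 TPM with DTPA, at 9.70, 9.67 and 9.51 TPM with DFO and at 8.53, 8.57 and 7.97 TPM with SA. DTPA and SA lay below control, but control replicate 3 was close to both. The differences were -0.22 with DTPA (limma adjusted p = 0.0126) and -0.23 with SA (limma adjusted p = 0.0286). The DTPA call was lost without control replicate 1 (-0.18) or 2 (-0.18) and in 3 of 4 other scalings. The SA call held in all 4 (-0.32 to -0.27) and was lost without control replicate 1 (-0.19) or 2 (-0.19) or SA replicate 1 (-0.24), 2 (-0.25) or 3 (-0.20). With DFO the difference was -0.05 (interval -0.19 to 0.10).

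Sco1 (chr11:67052670-67067070, plus strand), which helps to load the CuA site of cytochrome c oxidase, was at 6.01, 6.39 and 6.67 TPM in control and at 5.62, 4.91 and 5.23 TPM with DTPA. DFO gave 5.44, 6.52 and 5.63 TPM and SA 6.94, 6.85 and 5.96 TPM. DTPA lay below control and both other groups overlapped it. The DTPA difference of -0.23 (interval -0.42 to -0.05, limma adjusted p = 0.0263) was called under none of the other scalings (-0.20 to -0.12). It was also lost without control replicates 2 (-0.23) or 3 (-0.20) or DTPA replicates 2 (-0.19) or 3 (-0.23).

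Sco2 (chr15:89371637-89373846, minus strand), its paralog, was the lowest of the 10 genes in control at 2.86, 3.88 and 4.00 TPM. It was at 6.95, 5.42 and 4.57 TPM with DTPA, at 4.59, 5.75 and 5.62 TPM with DFO and at 4.88, 6.04 and 6.10 TPM with SA. All 9 treated libraries lay above all 3 control libraries. The difference was 0.53 with DTPA (1.58 times control, limma adjusted p = 0.00762), 0.47 with DFO (interval 0.14 to 0.79, limma adjusted p = 0.0675, not called) and 0.55 with SA (1.59 times, limma adjusted p = 0.0215). The SA call held in 3 of 4 other scalings (0.50 to 0.65 over all 4, limma adjusted p up to 0.0514). It was lost without control replicate 1 (0.43), SA replicate 2 (0.51) or SA replicate 3 (0.50), and the DFO value was called without DTPA replicate 1 (0.47). Because the 3 treatments share the control libraries, the low control values enter all 3 differences. The treatments did not differ from each other by a called amount: DTPA minus DFO was 0.06 (interval -0.26 to 0.39) and DTPA minus SA was -0.02 (interval -0.34 to 0.31). Of the exon bases of Sco2, 66.2% also lie in exons of Ncaph2, a condensin gene on the opposite strand that stood at 259 ± 9.04 TPM in control and 151 ± 2.48 with DTPA, and 68.3% in Tymp on the same strand. The library kit keeps the strand, but whether reads were counted by strand is not given in the sources used here. Sco2 rests on 26 to 62 reads per library, and reads of Sco2 and its neighbours may not have been told apart.

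Cox11 (chr11:90638173-90644931, plus strand), which helps to load the CuB site, was at 18.02, 16.3 and 12.9 TPM in control, the widest relative spread of the 10 genes there after Sco2. It was at 10.7, 10.2 and 11.9 TPM with DTPA, at 12.1, 14.1 and 16.6 TPM with DFO and at 14.8, 14.9 and 16.2 TPM with SA. DTPA lay below all other libraries. Its mean fell by 30.5% (log2 difference -0.48, SE 0.122, limma adjusted p = 0.00470; -0.44 to -0.36 under the other scalings, all called). DFO (-0.13, interval -0.40 to 0.14) and SA (-0.03, interval -0.30 to 0.24) were not called. Of its exon bases 48.4% lie in exons of Tom1l1 on the opposite strand, at 9.93 ± 0.694 TPM in control and 8.99 ± 0.566 with DTPA.

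Commd1 (chr11:22896136-22982382, minus strand) was at 17.6, 15.8 and 16.2 TPM in control and at 13.2, 14.2 and 13.6 TPM with DTPA. It was at 15.2, 16.1 and 15.5 TPM with DFO and at 17.7, 19.9 and 19.1 TPM with SA. DTPA gave the 3 lowest libraries and SA the 3 highest. The mean fell by 17.4% with DTPA (log2 difference -0.26, SE 0.0541, limma adjusted p = 0.00129; -0.20 to -0.13 under the other scalings, all called) and was 14.4% higher with SA (0.18, limma adjusted p = 0.0322). The SA call held in 1 of 4 other scalings (0.13 to 0.18) and was lost without control replicates 2 (0.15) or 3 (0.17) or SA replicates 2 (0.15) or 3 (0.18). With DFO the difference was -0.08 (interval -0.20 to 0.04).

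The chelators were then set against each other directly, at the same dose and time. Between DTPA and DFO, 8 of 10 genes were called (background 65.9%, 19.6% higher and 46.4% lower): Atp7a was higher with DTPA, and Slc31a1, Atp7b, Atox1, Ccs, Cox17, Cox11 and Commd1 were lower. Atp7b was 53.1% lower with DTPA than with DFO (log2 difference -1.03, SE 0.0461, limma adjusted p = 2.47e-09). Slc31a1 was 23.5% lower (-0.39, SE 0.0207, limma adjusted p = 1.26e-08) and Atp7a 14.3% higher (0.19, SE 0.0497, limma adjusted p = 0.00545). These 3 transporters were the genes called under all 4 other scalings (median-of-ratios background 63.6%, 31.7% higher and 31.9% lower), with Atp7b between -0.997 and -0.857, Slc31a1 between -0.290 and -0.198 and Atp7a between 0.292 and 0.381. The calls of Cox17 and Cox11 were also lost when single DTPA or DFO libraries were left out, Cox17 with each of the 6 (values from -0.19 to -0.16) and Cox11 with DTPA replicates 1 (-0.33) and 2 (-0.30) and DFO replicates 2 (-0.35) and 3 (-0.24).

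Against SA, DTPA gave 7 of 10 genes called (background 67.1%), 1 higher (background 20.1%) and 6 lower (47.0%). Atp7a was the higher gene, by 28.4%. On the median-of-ratios scale 5 were called (background 64.4%), 2 higher (31.8%) and 3 lower (32.6%). Those called in the same direction under all 4 other scalings were Slc31a1, Atp7a, Atp7b and Commd1. Cox17, with a difference of 0.01 on the deposited scale, was called higher with DTPA under 3 of the 4 (0.11 to 0.20 over all 4). Between DFO and SA, 2 of 10 were called (background 13.5%, 7.22% higher and 6.30% lower), and both were called under all 4 other scalings. Atp7b was 15.4% higher with DFO (log2 difference 0.20, limma adjusted p = 0.0161) and Commd1 17.4% lower (-0.26, limma adjusted p = 0.00880). Atp7a was 12.3% higher with DFO and not called (0.16, limma adjusted p = 0.0537), but it was called under all 4 other scalings (0.163 to 0.169, adjusted p up to 0.0257). The median-of-ratios count was thus 3 (background 14.6%), 2 higher (8.05%) and 1 lower (6.52%). The Atp7b difference was not called without DFO replicate 3 (0.17) or SA replicate 1 (0.17).

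**Figure D3:**
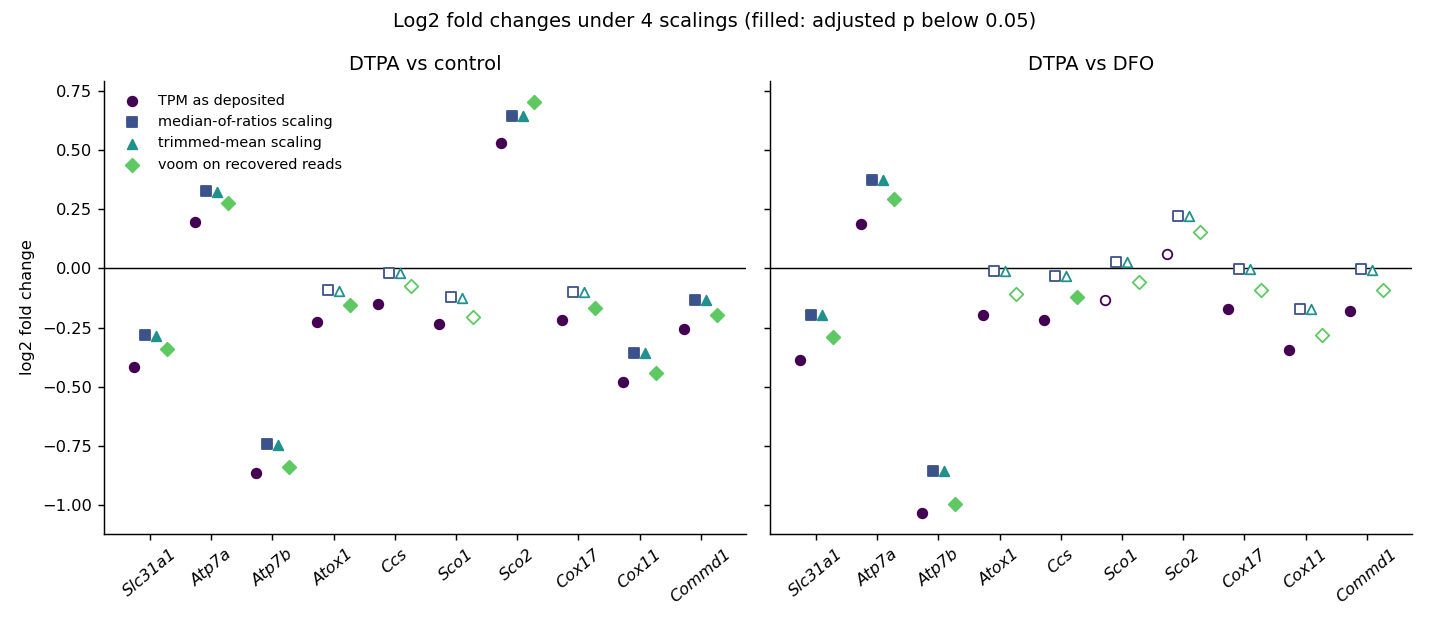
Log2 fold change of each gene for DTPA against control (left) and DTPA against DFO (right) from the deposited TPM and 3 other scalings, filled where the adjusted p is below 0.05. Slc31a1, Atp7a and Atp7b stay filled in both panels under every scaling, while the chaperones Atox1, Ccs, Sco1 and Cox17 move towards 0.

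The metal readout was very different from the copper genes in size. Mt1 was at 1790, 1902 and 1923 TPM in control, at 126, 122 and 119 TPM with DTPA, at 2033, 2059 and 2017 TPM with DFO and at 1737, 1751 and 1699 TPM with SA. Mt2 was at 2429, 2594 and 2535 TPM in control and at 8.36, 10.5 and 10.6 TPM with DTPA, and its DFO (2583 ± 235) and SA (2556 ± 68.2) libraries overlapped control. With DTPA Mt1 was 15.3 times lower (log2 difference -3.93, limma adjusted p = 2.22e-15) and Mt2 257 times lower (-7.87, limma adjusted p = 2.13e-14). Metallothionein genes answer to zinc as well as copper, so their level does not tell the metals apart. With DFO Mt1 was slightly higher (0.12, limma adjusted p = 0.0200), a call lost on the median-of-ratios scale (0.07), and with SA slightly lower (-0.11, limma adjusted p = 0.0157; -0.17 on that scale). Mt2 was not called with DFO (0.03, interval -0.14 to 0.21) or SA (0.02, interval -0.15 to 0.20).

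Of the 11 genes known to rise with excess copper, 9 were tested, and with DTPA 7 were lower and 2 higher (median -1.01, beside -0.11 over all genes). The background was 42.1% lower and 23.5% higher. The counts on the median-of-ratios scale were also 7 and 2 (background 32.4% and 32.2%). Besides the metallothioneins, Txnrd1, which encodes thioredoxin reductase, went from 91.4 ± 2.51 to 36.0 ± 0.279 TPM and Hmox1, which encodes heme oxygenase, from 148 ± 0.718 to 66.8 ± 4.62. The higher genes, Slc30a1 being named after its values were seen, were the zinc exporter Slc30a1, from 39.0 ± 2.26 to 73.7 ± 3.45 TPM (0.90, limma adjusted p = 4.76e-08), and Srxn1, from 71.7 ± 3.66 to 86.6 ± 1.56. With DFO 5 were lower (background 2.28%) and 1, Mt1, higher (8.39%). On the median-of-ratios scale 6 were lower and 0 higher with DFO (all genes: 646 and 423 of 11917). With SA 8 were lower (background 6.75%) and none higher (15.4%). The SA counts were the same on the median-of-ratios scale (all genes: 1624 lower and 1124 higher). Hmox1 was at 99.9 ± 5.61 TPM with DFO and 57.1 ± 3.18 with SA, and Srxn1, a redox repair enzyme, at 42.4 ± 0.784 and 30.7 ± 1.77. Several of these genes are also set by heme, oxidative stress or heat shock, and the list is not specific for copper.

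**Figure D4:**
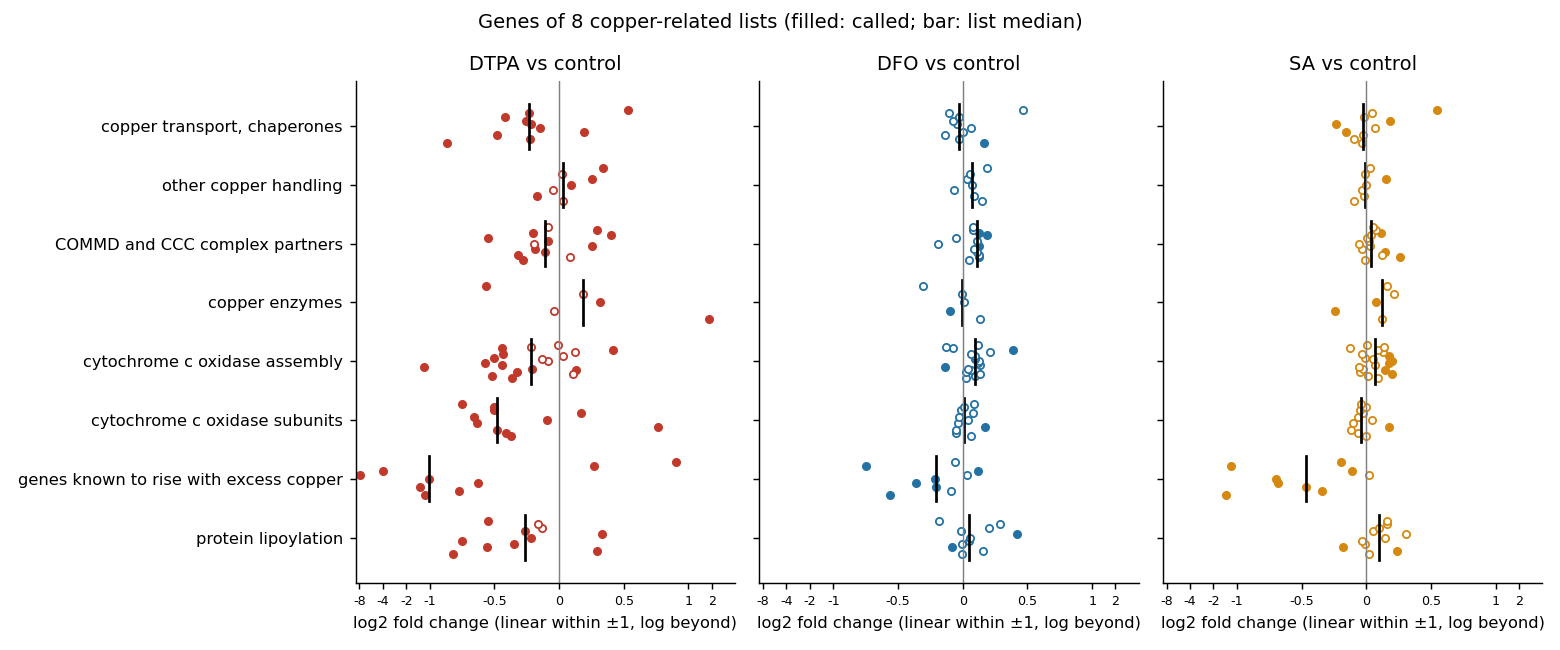
Difference from control of every tested gene in the copper genes and 7 further lists, for DTPA, DFO and SA, on an axis that is linear within ±1 and logarithmic beyond; filled points are called and bars are list medians. With DTPA the genes known to rise with excess copper reach -7.87 and have a median of -1.01, while the copper genes have a median of -0.23.

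Other copper handling genes were tested in 7 cases. With DTPA 3 were higher (background 23.5%) and 1 lower (42.1%), with a median of 0.03. On the median-of-ratios scale 5 were higher (background 32.2%) and none lower (32.4%), with a median of 0.16. With SA 1 was higher (background 15.4%) and none lower (6.75%). On the median-of-ratios scale 1 was higher and 1 lower with SA (all genes: 1124 and 1624 of 11917). With DFO limma called 0 of 7 (background 10.7%). Of these, 2 had an unadjusted p below 0.05 (Slc11a2 and Steap3), and voom called 1. Slc31a2, the CTR2 relative of the importer, was at 9.35 ± 0.516 TPM in control, 12.2 ± 1.77 with DTPA, 10.8 ± 0.465 with DFO and 9.55 ± 0.174 with SA, and was called with DTPA (0.34, limma adjusted p = 0.00419). Slc25a3, the mitochondrial phosphate carrier that also brings copper into the matrix, was at 175 ± 2.54, 178 ± 3.44, 181 ± 3.44 and 173 ± 4.43 TPM in the same order and was not called in any treatment on the deposited scale, but was higher with DTPA on the median-of-ratios scale (0.15). Slc46a3, a lysosomal transporter, was at 746 ± 11.1 TPM in control, 889 ± 18.5 with DTPA and 830 ± 11.7 with SA, called higher in both. Cutc was the lower gene with DTPA (-0.17, limma adjusted p = 0.0227), a call lost on the median-of-ratios scale (-0.04).

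A further list held the COMMD family, the CCC complex, which sorts membrane proteins on endosomes, and its partners Vps26c and Vps29. Of its 13 tested genes, 3 were higher (background 23.5%) and 7 lower (42.1%) with DTPA. Their median of -0.11 was that of all genes. On the median-of-ratios scale 4 were higher (background 32.2%) and 3 lower (32.4%). Commd2 went from 33.3 ± 2.46 to 22.4 ± 1.54 TPM (-0.55) and Commd9 from 164 ± 7.87 to 132 ± 2.63 (-0.31), while Commd10 went from 17.4 ± 0.756 to 23.3 ± 0.870 (0.40) and Commd7 from 28.3 ± 1.14 to 34.9 ± 0.850 (0.30). With DFO 4 were higher (background 8.39%) and none lower (2.28%), and the 4 calls were lost on the median-of-ratios scale. With SA 3 were higher (background 15.4%) and none lower (6.75%). Among the 3, Ccdc93 was at 58.5 ± 2.07 TPM in control and 70.2 ± 1.92 with SA. On the median-of-ratios scale 1 was higher with SA (all genes: 1124 of 11917).

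Copper enzymes were few: of 19 listed, 5 passed the filter on low values. With DTPA 2 of the 5 were called higher (background 23.5%) and 1 lower (42.1%). On the median-of-ratios scale 4 were higher (background 32.2%) and 1 lower (32.4%). With DFO 1 was lower (background 2.28%), and also 1 on that scale (all genes: 646 of 11917). With SA 1 was higher (background 15.4%) and 1 lower (6.75%), and on that scale 0 and 1 (all genes: 1124 and 1624). The mitochondrially encoded subunit mt-Co1, which holds the CuB site, was at 17582 ± 337 TPM in control, 21900 ± 139 with DTPA, 17748 ± 131 with DFO and 18540 ± 15.9 with SA, and was called higher with DTPA (0.32, limma adjusted p = 1.48e-08) and with SA (0.08, limma adjusted p = 0.00894; 0.02 and not called on the median-of-ratios scale). The gene listed as mt-Co2, which holds the CuA site, stood at 35.1 ± 1.39 TPM in control, far below mt-Co1. How mitochondrial reads were counted is not given, so the level of mt-Co2 may not be comparable with that of mt-Co1. It was not called in any treatment on the deposited scale, but with DTPA it was higher on the median-of-ratios scale (0.31). The lysyl oxidase gene Loxl3 rose with DTPA from 2.01 ± 0.183 to 9.54 ± 0.341 TPM (1.81, limma adjusted p = 2.53e-08). Aoc2, an amine oxidase gene, went from 3.02 ± 0.127 to 1.76 ± 0.518 TPM. The multicopper oxidase gene Cp did not reach 0.1 TPM as a mean in any group and was not tested.

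Cytochrome c oxidase, the client of the mitochondrial chaperones, had 11 nuclear subunit genes tested, and with DTPA 9 were lower (background 42.1%) and 2 higher (23.5%), with a median of -0.48 beside -0.11 over all genes. On the median-of-ratios scale 8 were lower (background 32.4%) and 2 higher (32.2%). Cox5b went from 930 ± 38.6 to 551 ± 7.08 TPM (-0.75) and Cox7a2 from 396 ± 15.8 to 251 ± 17.2 (-0.66), while Cox7a2l, a supercomplex factor, went from 272 ± 8.69 to 463 ± 3.79 (0.77). Of 19 other assembly factors tested, 12 were called, near the background of 65.5%: 10 were lower (42.1%) and 2 higher (23.5%), with a median of -0.22. On the median-of-ratios scale 10 were lower (background 32.4%) and 5 higher (32.2%). Cox20, which acts with SCO1 and SCO2 on the CuA subunit COX2, went from 71.3 ± 2.98 to 30.6 ± 0.653 TPM (-1.20, limma adjusted p = 1.06e-10). Coa6, another factor for copper delivery to COX2, was higher with both chelators, at 39.6 ± 3.74 TPM in control, 53.1 ± 0.408 with DTPA (0.42, limma adjusted p = 2.24e-05) and 52.0 ± 1.66 with DFO (0.39, limma adjusted p = 0.00110), and at 42.1 ± 0.378 with SA. With DFO 1 nuclear subunit and 2 assembly factors were called in all (background 10.7%). With SA 1 subunit and 5 factors were called, all higher (background 15.4%). On the median-of-ratios scale the SA calls were 4 subunits and 2 factors, all lower (all genes: 1624 of 11917).

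Genes of protein lipoylation, the pathway whose modified enzymes copper binds in copper-induced cell death, were lower in 7 (background 42.1%) and higher in 2 (23.5%) of 11 with DTPA (median -0.26). On the median-of-ratios scale 6 were lower (background 32.4%) and 2 higher (32.2%). Dlat, a lipoylated subunit of pyruvate dehydrogenase, went from 54.8 ± 1.22 to 30.6 ± 2.59 TPM (-0.82), and its partner Pdhb from 128 ± 0.769 to 75.3 ± 0.525 (-0.75). With DFO and with SA, 1 gene of the list was higher and 1 lower in each. The background was 8.39% higher and 2.28% lower with DFO, and 15.4% and 6.75% with SA. Among the called genes was Dlst, which went from 137 ± 2.46 TPM to 130 ± 2.01 with DFO and 121 ± 1.37 with SA.

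The genes whose levels followed 4 of the copper genes most closely over the 12 libraries were found by Pearson's r of log2(TPM + 1), as a description, since the libraries share 4 treatments. For Slc31a1 they were Mybl2 (r = 0.997), Ckap2l (0.997) and Klhl7 (0.997), each with its lowest mean in DTPA. The mean of Mybl2, a cell cycle transcription factor, was 20.1 TPM in control, 1.21 with DTPA, 16.03 with DFO and 17.4 with SA. For Atp7a they were Fuz (0.953), Tbk1 (0.953) and Senp7 (0.946), highest with DTPA and lowest with SA like Atp7a. For Ccs they were Mrpl50 (0.948), Cep78 (0.943) and Pum3 (0.938), and for Cox17 they were Ccar2 (0.918), Map2k3 (0.901) and Puf60 (0.865).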

How the data were processed

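Polyadenylated RNA of 12 libraries was sequenced, 3 per group, with groups and replicate numbers from the titles. The submitters' processing notes list featureCounts, edgeR, HISAT2 2.1.0, Trimmomatic 0.33 and FastQC and the build mm10; their settings, the strand counting and the gene annotation were not given in the sources used here. Per the tables the authors deposited TPM values, 55487 entries per library; of symbols occurring more than once, the copy with the highest mean was kept. Positions and exon lengths came from GENCODE M21, in which 96.2% of symbols had a length. TPM multiplied by length was whole within 0.1 read for 98.8% to 99.0% of values up to 200 reads.

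Values were fitted as log2(TPM + 1) with limma 3.58.1 in R 4.3.3 (no covariate, mean-variance trend), and other steps used Python 3.11.15, numpy 2.4.6, pandas 2.3.3, scipy 1.17.1 and matplotlib 3.10.9. The limma step was also tested on simulated data. The members and lists were chosen with earlier results of these data known. All 10 members were named, from the called genes of each further list and comparison with control up to 4 by size of change, Mt1, Mt2, Sod1, mt-Co1, mt-Co2, Slc31a2, Slc25a3 and Cp in any case, and the 3 genes most like Slc31a1, Atp7a, Ccs and Cox17. Alternatives were pseudocounts of 0.1 and 5, no filter or one of 5 TPM, 2 scalings, voom on recovered reads, only the 6 libraries compared, a replicate block and each library left out; voom with median-of-ratios library sizes was chosen after seeing the data.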

Additional observations from a re-analysis of the deposited data

How the results depend on the processing

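The replicate numbers did not pair the libraries: deviations of same-numbered libraries correlated between -0.043 and 0.054, and 6 of 12 libraries correlated best with their own number. With a replicate block the copper genes called were 10 for DTPA, 1 for DFO and 2 in place of 4 for SA. All genes called with the block were 7746, 1058 and 2432, in place of 7810, 1272 and 2642. With DTPA against control, 6 copper genes in place of 10 were called under median-of-ratios scaling, trimmed-mean scaling and voom with median-of-ratios library sizes. All genes called there were 7701, 7707 and 7950, in place of 7810. Against DFO, 3, 3 and 3 copper genes in place of 8 were called under these and 4 under voom. All genes called for DTPA against DFO were 7581, 7575 and 7801, and 7838 under voom, in place of 7857. With DFO, 0 copper genes were called without a filter or in the 6 libraries compared alone, which called 802 genes in all in place of 1272. Without a filter 951 genes were called in all with DFO. With SA, 0 copper genes were called without a filter (2150 genes in all) and 1 in the 6 libraries (2211), in place of 4 (2642). Leaving out 1 library gave 8 to 10 copper genes for DTPA, 0 to 2 for DFO, 0 to 4 for SA, 6 to 8 for DTPA against DFO, 7 to 8 for DTPA against SA and 1 to 3 for DFO against SA. For all genes it gave 7329 to 7801 in DTPA, 843 to 1250 in DFO and 2040 to 2621 in SA. Between treatments it gave 7348 to 7832 for DTPA against DFO, 7523 to 7977 for DTPA against SA and 1133 to 1579 for DFO against SA. The cause of these shifts was not tested.

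Uncalled differences near 0 changed sign under some settings. Under median-of-ratios scaling, trimmed-mean scaling and voom with median-of-ratios library sizes, in this order, Atp7a in DFO was -0.048, -0.049 and -0.052 (voom -0.015), Sco1 in SA -0.0076, -0.0090 and -0.0061, Sco1 in DTPA against DFO 0.027, 0.026 and 0.030, and Atox1 in DTPA against SA 0.058, 0.058 and 0.051. Sco2 in DTPA against SA was 0.147, 0.147 and 0.150 (voom 0.056), and Ccs in DFO against SA 0.0017 and 0.0023 under the first pair. With 1 library left out, Atp7a in DFO ranged from -0.044 to 0.039, Atp7b in SA from -0.058 to 0.0040, Cox11 in SA from -0.156 to 0.072, Sco2 in DTPA against DFO from -0.074 to 0.183, Sco2 and Cox17 in DTPA against SA from -0.153 to 0.104 and from -0.017 to 0.029, and Ccs and Sco2 in DFO against SA from -0.025 to 0.025 and from -0.167 to 0.0077. Sco2 rests on 26 to 62 reads per library, which limits its precision.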
